A study of Mus musculus with 9 samples.

Results

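Cyclic nucleotide phosphodiesterases were examined in mouse cardiac endothelium through 10 genes, Pde1a, Pde2a, Pde3a, Pde3b, Pde4a, Pde4b, Pde4d, Pde5a, Pde8a and Pde10a. They were taken by symbol from the deposited table, where all 10 had a row among 18094 genes, and all 10 passed the low-count filter. The study holds 9 RNA sequencing libraries in 3 groups of 3. The groups were 22-week BPH/2J, 4-week BPH/2J and 22-week BPN/3J. BPH/2J is an inbred line selected for high blood pressure, BPN/3J is its normotensive companion line, and no transgene or treatment is labelled in any group. Endothelial cells were enriched directly from cardiac tissue with magnetic beads. Each blood pressure state is a single inbred line and BPN/3J has a single age, so line and blood pressure cannot be told apart, and age was compared only within BPH/2J. Nothing in the labels says whether replicates come from different animals. The p-values therefore reflect only how these libraries vary, and that variation may be technical.

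Phosphodiesterases break down cAMP and cGMP, the intracellular messengers made by adenylyl and guanylyl cyclases, and so set how long and where in the cell these signals last. The families differ in substrate and control. Pde4 and Pde8 enzymes cleave cAMP, Pde5a cleaves cGMP, and Pde1, Pde2, Pde3 and Pde10 enzymes cleave both. Pde2a is stimulated by cGMP, Pde3 enzymes are inhibited by it, and Pde1 enzymes need calcium and calmodulin. In endothelium, cAMP tightens the barrier, and nitric oxide and natriuretic peptides raise cGMP. Inhibitors of Pde3, Pde4 and Pde5 are in clinical use.

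Depth ran from 28806840 to 32913813 counts per library, and 3 counts, the most that a count of 0 allows at 95%, equal 0.0911 to 0.104 CPM of the unscaled library totals (counting error only). The lowest count of any member was 130, for Pde1a in a 4-week library. Cdh5, which encodes endothelial cadherin, averaged 3049 ± 202 CPM in 22-week BPH/2J, 3181 ± 94.1 CPM in 4-week BPH/2J and 2405 ± 41.9 CPM in BPN/3J (SD, n = 3, as for all CPM below). All 10 endothelial markers had counts in every group, and none averaged under 1 CPM. Genes of other cell types were also present. Replicate 1 of 4-week BPH/2J stood apart from its group on the third principal component, at -26.8 against 12.9 and 9.12, and it carried 2.63% mitochondrial counts against 1.19% and 1.33%.

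The members covered a wide range of levels. To set genes beside each other, CPM was divided by the deposited gene length in kilobases. Pde2a was the most abundant in every group, with means of 118 ± 13.8 CPM per kb in 22-week BPH/2J, 91.5 ± 10.97 in 4-week BPH/2J and 106 ± 12.7 in BPN/3J. Pde2a alone made up 68.9% to 73.6% of the summed per-length level of the 10 members in 22-week BPH/2J libraries, 55.9% to 61.7% in 4-week BPH/2J libraries and 64.4% to 68.9% in BPN/3J libraries. Pde8a followed with 25.3 ± 2.06, 32.3 ± 2.28 and 26.8 ± 1.42 CPM per kb in the same order of groups, and then Pde4b with 10.4 ± 0.461, 15.9 ± 0.828 and 10.6 ± 0.167. Pde3a had rank 4 in each group, at 3.78 ± 0.421 CPM per kb in 22-week BPH/2J, 4.14 ± 0.394 in 4-week BPH/2J and 4.41 ± 0.304 in BPN/3J. Libraries of these 4 leading genes did not overlap with those of the next gene in the order within any group.

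**Figure D1:**
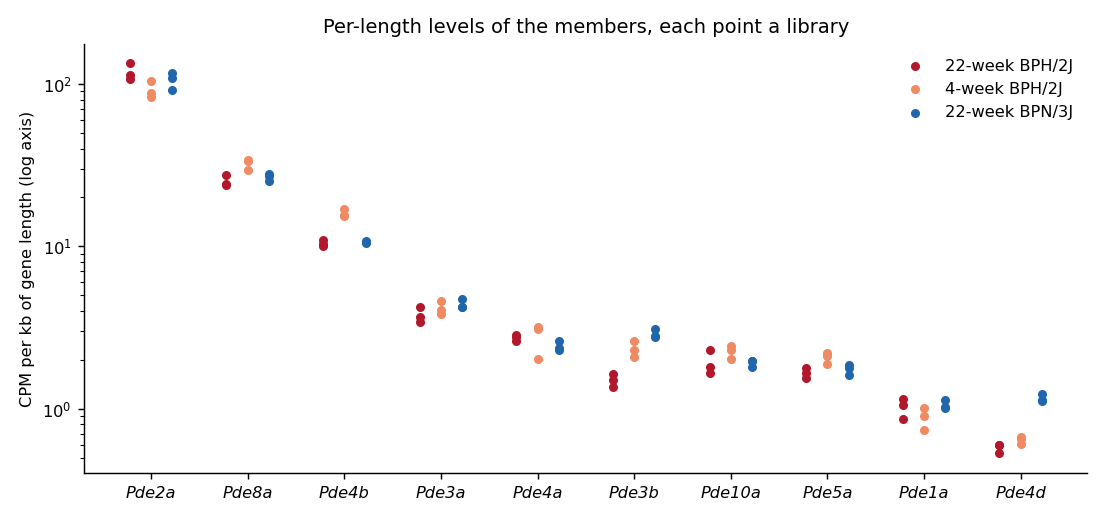
Level of each phosphodiesterase gene in CPM per kilobase of gene length on a log axis, each point a library, coloured by group. Pde2a lies above all other members in every library, and Pde4d in BPH/2J lies lowest, with group means of 0.574 and 0.643 CPM per kb at 22 and 4 weeks.

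The lower ranks differed between groups. In 22-week BPH/2J the order went on with Pde4a, Pde10a, Pde5a, Pde3b, Pde1a and Pde4d, and the libraries of Pde10a overlapped with those of Pde5a, and those of Pde5a with those of Pde3b. In 4-week BPH/2J it was Pde4a, Pde3b, Pde10a, Pde5a, Pde1a and Pde4d, with overlaps between neighbours from Pde4a down to Pde5a. In BPN/3J it was Pde3b, Pde4a, Pde10a, Pde5a, Pde4d and Pde1a, with overlaps between Pde10a and Pde5a and between Pde4d and Pde1a. Pde4d thus had the lowest per-length level in both BPH/2J groups, at 0.574 ± 0.0379 and 0.643 ± 0.0302 CPM per kb at 22 and 4 weeks, and lay beside Pde1a in BPN/3J, at 1.16 ± 0.0639.

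Pde8a and Pde4b were the most abundant of the cAMP-specific members. Each held TGACG, the core of the cAMP response element to which CREB factors bind, in the 250 bases before a RefSeq start site. The windows are shown because protein kinase A, the kinase that cAMP activates, acts on CREB factors, and they were chosen with the genes' values known. The Pde4b window is chr4:102421305-102421554 and the Pde8a window chr7:81213015-81213264, both on the plus strand of GRCm38.p6. Capitals mark TGACG or its reverse complement CGTCA, and the start site follows the last base.
Pde4b: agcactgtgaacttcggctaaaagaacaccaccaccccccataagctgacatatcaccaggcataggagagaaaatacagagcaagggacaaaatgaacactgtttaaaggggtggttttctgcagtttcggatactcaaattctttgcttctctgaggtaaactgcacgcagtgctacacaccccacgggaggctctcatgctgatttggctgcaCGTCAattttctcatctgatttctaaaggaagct
Pde8a: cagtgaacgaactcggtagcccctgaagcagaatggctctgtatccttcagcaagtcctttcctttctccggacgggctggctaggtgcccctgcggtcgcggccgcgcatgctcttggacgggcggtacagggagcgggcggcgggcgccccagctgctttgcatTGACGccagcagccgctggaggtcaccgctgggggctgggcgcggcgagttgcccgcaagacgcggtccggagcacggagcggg
The element begins 34 bases before this start site of Pde4b and 84 bases before that of Pde8a. The windows of the other RefSeq start sites of Pde4b held no TGACG on either strand. RefSeq windows were matched for 8 of the 10 members, and 4 of their 21 windows (19.0%) held TGACG on either strand, 1 each for Pde1a, Pde4a, Pde4b and Pde8a, against 17.8% of all 32851 windows. The palindrome TGACGTCA, which contains the core, was in 0 of the 21 and in 1.55% of all windows. The share in the members was thus near that of all genes. These are letters of the reference genome, and whether BPH/2J or BPN/3J carries them was not tested.

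The comparison of 22-week BPH/2J with 22-week BPN/3J asked which phosphodiesterase transcripts differ between the lines at equal age. Pde4d and Pde3b were lower in BPH/2J, at 0.494-fold and 0.518-fold, and none of the 10 members was higher. These 2 calls of 10 stand against 38.0% of all 15277 tested genes called in either direction and 18.2% called lower, so the share of members called was not above that of genes at large. Higher calls made up 19.8% of the tested genes. The 3 libraries of each group did not overlap for 2 members, both lower, against 55.7% of tested genes without overlap, 29.3% higher and 26.4% lower. The median log2 difference of the members was -0.06, and that of all tested genes 0.02. Calls here and in what follows are from edgeR's quasi-likelihood F test, at an adjusted p under 0.05 (Benjamini-Hochberg, all tested genes).

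Pde4d, a cAMP-specific enzyme known in heart for its place at the ryanodine receptor and beta-adrenergic receptors, had 7.17, 6.37 and 7.15 CPM in 22-week BPH/2J, against 13.4, 14.8 and 13.6 CPM in BPN/3J. Every BPH/2J library lay below every BPN/3J library. The log2 difference was -1.02 ± 0.10 (SE, adjusted p = 3.11e-05), a level 0.494-fold that of BPN/3J with a 95% interval of 0.425 to 0.574. Pde3b, a cGMP-inhibited enzyme best known from insulin action in fat and liver, had 9.40, 10.3 and 11.2 CPM in 22-week BPH/2J, against 21.3, 19.2 and 19.2 CPM in BPN/3J. The groups did not overlap, and the log2 difference was -0.95 ± 0.11 (SE, adjusted p = 8.69e-05), or 0.518-fold with an interval of 0.440 to 0.610. The authors' deposited table, which gives BPN/3J over BPH/2J, lists log2 values of 1.00 for Pde4d and 0.934 for Pde3b, with false discovery rates of 6.6e-12 and 2.31e-11.

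**Figure D2:**
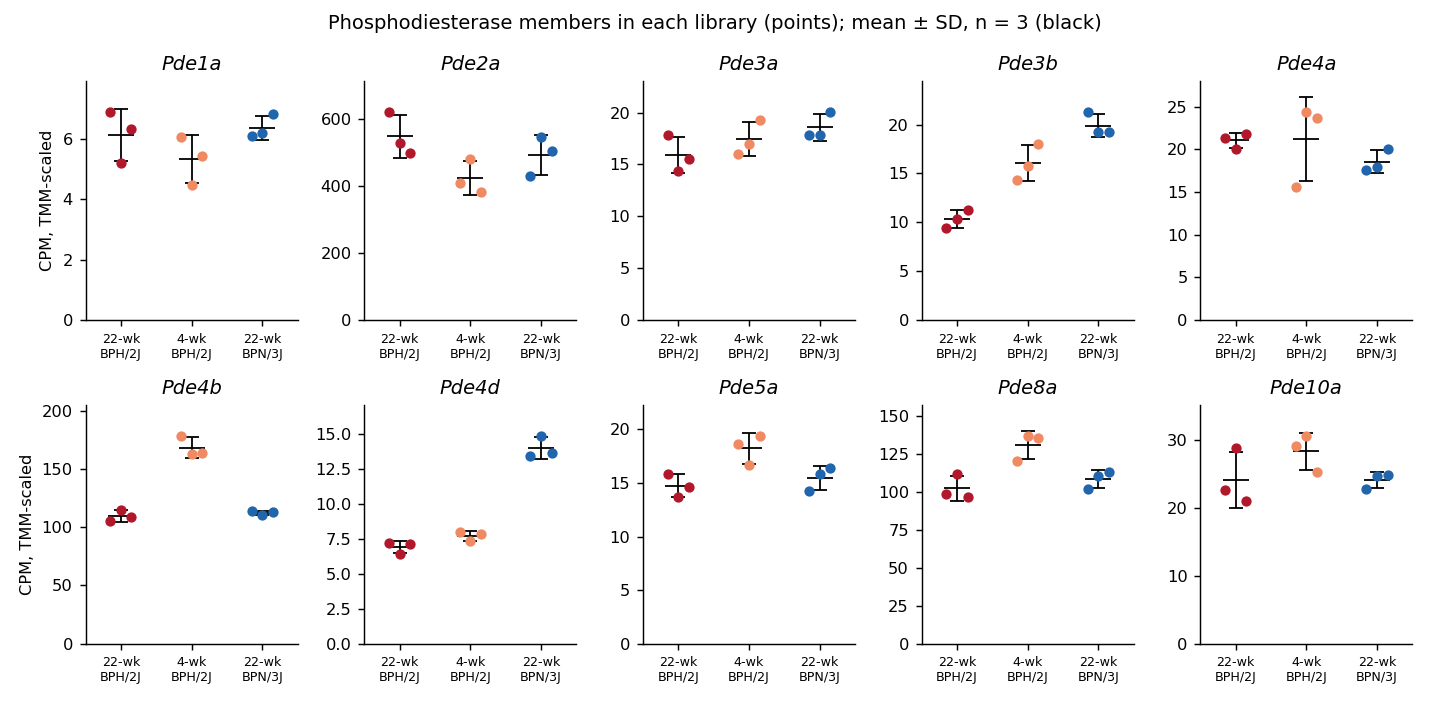
CPM of each phosphodiesterase gene in every library, with 22-week BPH/2J, 4-week BPH/2J and 22-week BPN/3J from left to right, and the mean and SD of the 3 libraries in black. Pde4d is low in both BPH/2J groups, Pde4b is high in the 4-week group, and Pde3b is lowest in 22-week BPH/2J and highest in BPN/3J.

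For the other 8 members no difference between the lines was detected, and the intervals limit its size unequally. The tightest was that of Pde4b, the Pde4 gene tied to inflammatory signalling in leukocytes, with 109.6 ± 4.87 CPM in BPH/2J, against 112 ± 1.76 CPM in BPN/3J and an interval of 0.894-fold to 1.07-fold (adjusted p = 0.674). Pde8a had an interval of 0.838-fold to 1.06-fold, and Pde5a, the target of sildenafil, one of 0.824-fold to 1.10-fold. Pde3a, the cGMP-inhibited enzyme of platelets, heart and vascular muscle, had 15.9 ± 1.77 CPM in BPH/2J, against 18.6 ± 1.28 CPM in BPN/3J, and its interval of 0.730-fold to 1.01-fold lay mostly below equality (adjusted p = 0.118). Pde2a, Pde4a, Pde1a and Pde10a had adjusted p of 0.324, 0.344, 0.799 and 0.989. Their intervals reached 1.33-fold, 1.42-fold, 1.21-fold and 1.20-fold at the upper end.

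Transcripts of other cell types also differed between the lines. Of 12 cardiomyocyte markers 8 were lower in BPH/2J and 0 were higher, with summed levels of 532 to 647 CPM in BPH/2J libraries and 904 to 1117 CPM in BPN/3J libraries. The most abundant of them, Mb, which encodes myoglobin, averaged 106.8 ± 16.4 CPM in BPH/2J, against 135 ± 21.3 CPM in BPN/3J. Of 8 fibroblast markers 3 were lower, with sums of 582 to 736 CPM and 1186 to 1266 CPM, and Gsn, which encodes gelsolin, averaged 290 ± 41.5 CPM and 703 ± 22.0 CPM in these groups. Of 10 macrophage and monocyte markers 8 were lower and 0 higher, with sums of 212 to 249 CPM in BPH/2J and 355 to 599.5 CPM in BPN/3J. Of 10 endothelial markers 6 were higher in BPH/2J and 2 lower. Their sums were 12796 to 13029 CPM in BPH/2J and 10055 to 10637 CPM in BPN/3J, without overlap. The 10 for pericytes and smooth muscle had 1 call each way. These summed to 1397 to 1674 CPM in BPH/2J and 1181 to 1387 CPM in BPN/3J, also without overlap. Their most abundant gene, Rgs5, averaged 776 ± 69.2 CPM in BPH/2J, against 470 ± 50.4 CPM in BPN/3J. Of 10 lymphocyte markers 2 were higher and 1 lower. Mitochondrial counts made up 1.45% to 1.91% of BPH/2J libraries and 2.02% to 2.78% of BPN/3J libraries. No marker was at 0 in all libraries of a group. The part of these cells and of the mitochondrial share in the lower Pde4d and Pde3b was not tested, and in bulk libraries fewer cells of a type and less RNA per cell cannot be told apart.

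The second comparison set 22-week against 4-week BPH/2J, and so asked what differs with age in the hypertensive line. It shares the 22-week BPH/2J libraries with the first. Of the 10 members 4 were lower at 22 weeks, namely Pde4b, Pde3b, Pde8a and Pde5a, and Pde2a was higher. The 5 calls compare with 41.0% of all tested genes called, 21.1% lower and 19.9% higher. Groups did not overlap for 5 members that were lower, Pde4d being the addition, and for 1 that was higher, against 51.2% of tested genes, 25.7% lower and 25.5% higher. The median log2 difference of the members was -0.20, and that of all tested genes 0.005.

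Among the cAMP-specific enzymes, Pde4b had 105.5, 115 and 108 CPM at 22 weeks, against 178, 163 and 164 CPM at 4 weeks. The ages did not overlap, and the log2 difference of -0.62 ± 0.06 (SE, adjusted p = 3.48e-05) was 0.652-fold, with an interval of 0.596 to 0.712. Pde8a, a high-affinity cAMP enzyme, had 98.2, 112 and 96.5 CPM at 22 weeks, against 120.1, 137 and 135 CPM at 4 weeks. Its groups also stood apart. The Pde8a values gave a log2 difference of -0.36 ± 0.08 (SE, adjusted p = 0.00422). Pde4d had 6.90 ± 0.455 CPM at 22 weeks and 7.72 ± 0.363 CPM at 4 weeks, without overlap, but this was not called (adjusted p = 0.215, interval 0.767-fold to 1.04-fold). Pde4a had 21.1 ± 0.890 CPM and 21.2 ± 4.88 CPM at these ages and was not called (adjusted p = 0.961). Replicate 1 of the 4-week group, the library that stood apart, had 15.6 CPM of Pde4a against 24.4 and 23.7 CPM in the other 4-week libraries.

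Among the enzymes that cleave cGMP or are controlled by it, Pde3b had the 22-week values given above, all below the 14.4, 15.8 and 18.0 CPM of the 4-week libraries. Its log2 difference with age was -0.64 ± 0.11 (SE, adjusted p = 0.000998), or 0.642-fold. Pde5a had 15.9, 13.7 and 14.6 CPM at 22 weeks, against 18.6, 16.6 and 19.4 CPM at 4 weeks, with no overlap and a log2 difference of -0.31 ± 0.09 (SE, adjusted p = 0.0239). The call of Pde5a was lost without replicate 2 or 3 of the 22-week group or replicate 3 of the 4-week group, with log2 differences of -0.25, -0.29 and -0.25 and adjusted p of 0.0888, 0.0736 and 0.102.

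Pde2a had 621, 527 and 498 CPM at 22 weeks, against 410, 482 and 384 CPM at 4 weeks. The lowest 22-week library lay just above the highest 4-week library, and the log2 difference was 0.37 ± 0.12 (SE, adjusted p = 0.0296), or 1.29-fold with an interval of 1.08 to 1.55. The call was lost without replicate 1 of the 22-week group (log2 difference 0.28, adjusted p = 0.118) and without replicate 3 of the 4-week group (0.30, adjusted p = 0.109), with the direction kept. Pde1a, Pde3a and Pde10a were not called, with intervals of 0.912-fold to 1.45-fold, 0.777-fold to 1.07-fold and 0.712-fold to 1.02-fold. Pde10a was at 22.7, 28.8 and 21.0 CPM at 22 weeks and 29.1, 30.6 and 25.4 CPM at 4 weeks. Without replicate 2 of the 22-week group Pde10a passed the threshold (adjusted p = 0.0165).

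**Figure D3:**
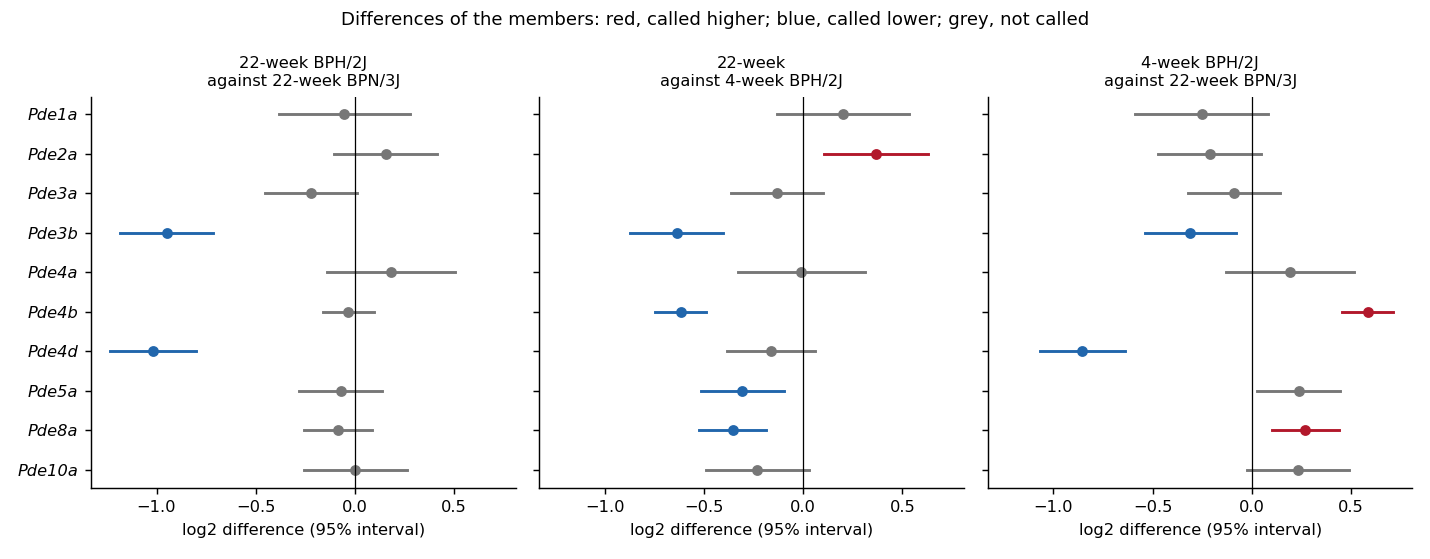
Log2 difference of each phosphodiesterase gene with its 95% interval in 3 comparisons, with positive values for a higher level in the group named first. Pde4d and Pde3b lie to the left in both comparisons with BPN/3J, and Pde4b lies at -0.62 for age within BPH/2J and at 0.58 for 4-week BPH/2J against BPN/3J.

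With age, 9 of 10 macrophage and monocyte markers were lower at 22 weeks, with sums of 212 to 249 CPM at 22 weeks and 411 to 771 CPM at 4 weeks. Their most abundant gene, Lyz2, which encodes lysozyme, averaged 92.2 ± 14.04 CPM at 22 weeks and 202 ± 69.5 CPM at 4 weeks. In BPN/3J the same markers summed to 355 to 599.5 CPM, above 22-week BPH/2J. Markers of pericytes and smooth muscle, cells known to hold Pde5a and Pde3a, had 0 of 10 higher and 2 lower at 22 weeks, with sums of 1397 to 1674 CPM at 22 weeks and 1429 to 1795 CPM at 4 weeks. Their most abundant gene, Rgs5, a regulator of G proteins, averaged 776 ± 69.2 CPM and 853 ± 89.7 CPM at these ages. Of 12 cardiomyocyte markers 1 was higher and 0 lower, and of 8 fibroblast markers 3 were higher and 2 lower. Lymphocyte markers had 6 of 10 higher and 0 lower, with sums of 52.9 to 115 CPM and 39.6 to 61.2 CPM. The part of these cells in the age differences was not tested.

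The comparison of 4-week BPH/2J with 22-week BPN/3J differs in both line and age, and it shares its libraries with the comparisons above. Pde4b and Pde8a were higher in 4-week BPH/2J, and Pde4d and Pde3b were lower, so 4 of 10 members were called against 53.1% of all tested genes. Called higher were 27.8% of those genes and called lower 25.3%. Groups did not overlap for 4 members that were higher, Pde4b, Pde8a, Pde5a and Pde10a, and for 3 that were lower, Pde4d, Pde3b and Pde1a, against 59.2% of tested genes, 30.5% higher and 28.7% lower. Pde4b was higher by a log2 difference of 0.58 ± 0.06 (SE, adjusted p = 1.62e-05), with an interval of 1.37-fold to 1.64-fold, and Pde8a 1.21-fold higher (adjusted p = 0.0123). Pde4d had 7.99, 7.31 and 7.86 CPM in 4-week BPH/2J, against the BPN/3J values of 13.4 CPM and more given above, a log2 difference of -0.85 ± 0.10 (SE, adjusted p = 4.05e-05). Pde3b was at 0.807-fold, with adjusted p = 0.0275. The Pde3b call was lost without replicate 1 or 2 of either group, with adjusted p of 0.0684 and 0.0727 for 4-week BPH/2J and 0.0983 and 0.0502 for BPN/3J. The Pde8a call was lost without replicate 3 of 4-week BPH/2J (adjusted p = 0.0521) or replicate 1 of BPN/3J (adjusted p = 0.051). Pde5a missed the threshold at adjusted p = 0.0545, with 18.2 ± 1.42 CPM in 4-week BPH/2J and 15.5 ± 1.11 CPM in BPN/3J. It passed with library totals alone (adjusted p = 0.0458) and without replicate 2 of 4-week BPH/2J (adjusted p = 0.0317). Pde10a passed without replicate 2 of 22-week BPH/2J, which is in neither group (adjusted p = 0.0494), and Pde4a passed without replicate 1 of 4-week BPH/2J (log2 difference 0.37, adjusted p = 0.0025). Of 12 cardiomyocyte markers 10 were lower in 4-week BPH/2J and 0 higher, with sums of 402 to 653 CPM against 904 to 1117 CPM. Fibroblast markers had 2 of 8 higher and 4 lower, with sums of 460.1 to 721 CPM against 1186 to 1266 CPM. The 10 for pericytes and smooth muscle had 3 higher and 1 lower, with sums of 1429 to 1795 CPM in 4-week BPH/2J and 1181 to 1387 CPM in BPN/3J, without overlap. Rgs5, which weighed heavily in these sums, averaged 853 ± 89.7 CPM in 4-week BPH/2J and 470 ± 50.4 CPM in BPN/3J. Of 10 endothelial markers 3 were higher and 1 lower. Their sums were 12274 to 12795 CPM in 4-week BPH/2J and 10055 to 10637 CPM in BPN/3J, without overlap. Of 10 macrophage and monocyte markers 1 was higher and 0 lower, and of 10 lymphocyte markers 1 was higher and 2 lower. The part of these cells was not tested.

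Set side by side, the 6 members called in any comparison differed in how their group means were arranged. Pde4d was low in both BPH/2J groups, at 6.90 and 7.72 CPM at 22 and 4 weeks, against 13.96 CPM in BPN/3J. Pde4b and Pde8a were high in 4-week BPH/2J alone of the 3 groups, and 22-week BPH/2J and BPN/3J were not told apart by the test. Pde3b was graded, with 10.3 CPM in 22-week BPH/2J, 16.1 CPM in 4-week BPH/2J and 19.9 CPM in BPN/3J. Its libraries did not overlap between any pair of groups. Pde2a was highest in 22-week BPH/2J, with means of 549, 425 and 493 CPM in 22-week BPH/2J, 4-week BPH/2J and BPN/3J, and was called between the ages only. Pde5a had means of 14.7, 18.2 and 15.5 CPM in these groups and was likewise called between the ages only. The authors' deposited table lists a false discovery rate under 0.05 for 2 members between the lines at 22 weeks, for 5 between the ages and for 4 between 4-week BPH/2J and BPN/3J.

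Within the Pde4 subfamily the makeup differed between groups. Its other gene, Pde4c, was no member but was expressed, with 29.7, 27.9 and 23.8 CPM in 22-week BPH/2J, 24.9, 34.7 and 28.9 CPM in 4-week BPH/2J and 44.3, 47.7 and 54.5 CPM in BPN/3J. Per length, Pde4b made up 55.8% ± 2.14 of the 4 Pde4 genes in 22-week BPH/2J, 64.7% ± 4.95 in 4-week BPH/2J and 46.2% ± 2.26 in BPN/3J (SD, n = 3). Pde4c made up 26.3% ± 2.36, 21.5% ± 3.00 and 38.2% ± 2.22 in these groups, and Pde4d 3.09% ± 0.275, 2.61% ± 0.195 and 5.06% ± 0.390. The ratio of Pde4b to Pde4d per length was 16.7 to 20.5 in 22-week BPH/2J libraries, 23.7 to 25.4 in 4-week BPH/2J libraries and 8.44 to 9.63 in BPN/3J libraries, with no overlap. The sum of the 4 genes was 18.6 ± 0.538 CPM per kb in 22-week BPH/2J, 24.7 ± 0.706 in 4-week BPH/2J and 23.0 ± 1.12 in BPN/3J. These shares are descriptions of genes chosen with their values known, and no test was run on them.

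**Figure D4:**
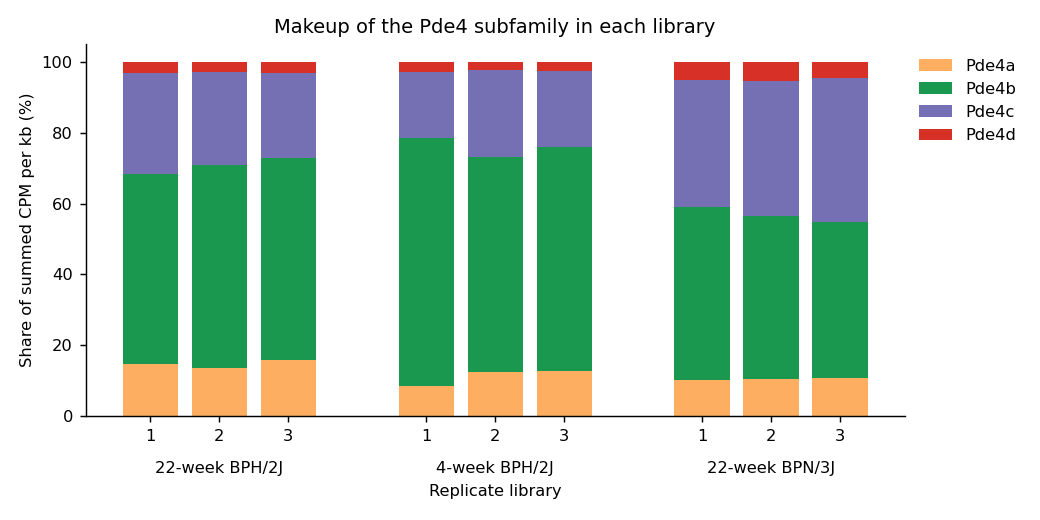
Share of each Pde4 gene in the summed CPM per kilobase of the 4 Pde4 genes, in percent, for every library in 3 groups. Pde4b takes 44.0% to 48.5% in BPN/3J libraries and at least 53.4% in BPH/2J libraries, and Pde4c and Pde4d take larger shares in BPN/3J.

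The cGMP-inhibited pair also differed in proportion. Pde3a exceeded Pde3b per length by a ratio of 2.27 to 3.11 in 22-week BPH/2J libraries, 1.75 to 1.83 in 4-week BPH/2J libraries and 1.38 to 1.71 in BPN/3J libraries. Pde2a, which cGMP stimulates, exceeded the sum of Pde3a and Pde3b by a ratio of 20.2 to 23.8 in 22-week BPH/2J libraries, 11.5 to 16.4 in 4-week BPH/2J libraries and 12.6 to 16.7 in BPN/3J libraries. The 22-week BPH/2J libraries thus lay above all others in both ratios, which were not tested. The cAMP-specific members Pde4a, Pde4b, Pde4d and Pde8a summed to 39.0 ± 2.34 CPM per kb in 22-week BPH/2J, 51.7 ± 2.07 in 4-week BPH/2J and 41.0 ± 1.53 in BPN/3J. The cAMP-specific genes Pde4c, Pde7a, Pde7b and Pde8b are no members and are left out of this sum.

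Of 14 further genes with a Pde family symbol, 12 had a row and 8 passed the filter. Between the lines at 22 weeks 1 of the 8 was higher and 2 were lower, against 19.8% and 18.2% of all tested genes. Pde4c was 0.556-fold in BPH/2J (log2 difference -0.85 ± 0.13, SE, adjusted p = 0.000587), and Pde7a, a cAMP-specific enzyme, was lower at 20.0, 19.4 and 21.5 CPM in BPH/2J, against 27.0, 24.9 and 28.1 CPM in BPN/3J (adjusted p = 0.00204). Pde6d, which despite its name encodes a carrier of prenylated proteins, was higher at 28.3, 31.1 and 30.9 CPM in BPH/2J, against 23.9, 24.0 and 21.5 CPM in BPN/3J (adjusted p = 0.00279). The groups did not overlap for these genes, nor for 55.7% of all tested genes. In 4-week BPH/2J against BPN/3J, 1 of the 8 was higher and 4 were lower, against 27.8% and 25.3% of all tested genes.

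With age, 2 of the 8 were higher at 22 weeks and 0 were lower, against 19.9% and 21.1% of all tested genes. Pde9a, a cGMP-specific enzyme of high affinity, had 22.6, 24.1 and 22.0 CPM at 22 weeks, against 13.6, 11.2 and 11.6 CPM at 4 weeks. It was 1.89-fold higher, with an interval of 1.65 to 2.16 (adjusted p = 3.98e-05). Pde7b, a cAMP-specific enzyme, had 19.0, 16.9 and 18.0 CPM at 22 weeks, against 10.7, 7.58 and 5.22 CPM at 4 weeks, or 2.29-fold higher (adjusted p = 0.00108). The age difference of these cyclic nucleotide enzymes ran opposite to that of Pde4b, Pde8a and Pde5a. Pde9a and Pde7b were also lower in 4-week BPH/2J than in BPN/3J, where they averaged 20.8 ± 0.914 and 20.2 ± 2.11 CPM, and 22-week BPH/2J and BPN/3J were not told apart (adjusted p = 0.224 and 0.503). Pde1b, Pde1c and Pde8b averaged 4.17, 1.42 and 1.97 CPM in 22-week BPH/2J and were not called in any comparison.

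**Figure D5:**
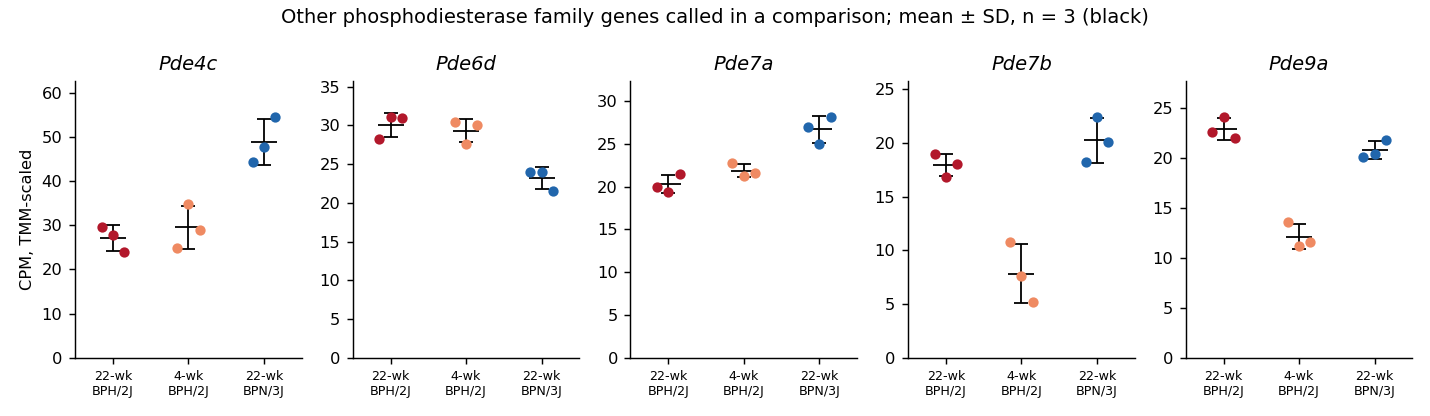
CPM in every library of the 5 other Pde genes called in at least 1 comparison, with 22-week BPH/2J, 4-week BPH/2J and 22-week BPN/3J from left to right, and mean and SD in black. Pde4c and Pde7a are highest in BPN/3J, Pde6d is lowest there, and Pde7b and Pde9a are lowest in the 4-week group.

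Counts for the gene lists from here to the exporters stand against the shares of all tested genes called. Between the lines at 22 weeks these shares were 19.8% higher and 18.2% lower, and with age 19.9% and 21.1%. For 4-week BPH/2J against BPN/3J they were 27.8% and 25.3%. The lists were not tested as sets. Upstream of the enzymes, the adenylyl cyclases, which make cAMP, had 6 tested genes. Between the lines at 22 weeks 1 was lower and 0 higher: Adcy7 had 14.6 ± 0.927 CPM in BPH/2J, against 26.3 ± 4.20 CPM in BPN/3J (adjusted p = 0.000441). With age 2 were lower and 0 higher, Adcy7 again (adjusted p = 0.0059) and Adcy6, a cyclase that calcium inhibits, at 199 ± 5.16 CPM at 22 weeks and 273 ± 28.0 CPM at 4 weeks (adjusted p = 0.00361). Against BPN/3J, 4-week BPH/2J had 2 higher and 3 lower, among them Adcy3 at 6.99 ± 0.745 against 4.26 ± 0.667 CPM and Adcy5 at 9.19 ± 1.91 against 14.8 ± 0.932 CPM. Adcy6 was 1.23-fold and Adcy9 0.839-fold there (adjusted p = 0.0209 and 0.019), and the libraries of Adcy6 overlapped.

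The list of guanylyl cyclases, which make cGMP, and of natriuretic peptide receptors, not all of them cyclases, had 7 tested genes. Between the lines 2 were lower in BPH/2J and 0 higher. Npr1, the receptor cyclase of atrial natriuretic peptide, had 241 ± 8.30 CPM in BPH/2J, against 288 ± 8.81 CPM in BPN/3J (adjusted p = 0.00956), and Gucy1a2, a subunit of the nitric oxide receptor, had 3.82 ± 0.662 and 6.80 ± 1.37 CPM (adjusted p = 0.0124). With age 2 were higher and 0 lower. The clearance receptor Npr3, which removes natriuretic peptides, was 2.39-fold higher at 22 weeks, at 143 ± 52.9 CPM against 59.7 ± 4.99 CPM at 4 weeks (adjusted p = 0.00131). Npr2, the receptor cyclase of C-type natriuretic peptide, was 1.36-fold higher (adjusted p = 0.00192). In 4-week BPH/2J 3 of the 7 were lower than in BPN/3J and 0 higher, among them Npr3 at 0.418-fold and Npr2 at 0.737-fold (adjusted p = 0.000737 and 0.00112).

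Of 17 tested genes for proteins that bind or act on cyclic nucleotides, 1 was higher and 5 lower in 22-week BPH/2J than in BPN/3J. The protein kinase A catalytic subunit Prkaca was 1.24-fold higher (adjusted p = 0.00363). Rapgef3, which encodes Epac1, the cAMP sensor that activates Rap1 in endothelium, had 283 ± 15.96 CPM in BPH/2J, against 354 ± 5.84 CPM in BPN/3J (adjusted p = 0.00538). The channel subunit Cngb1, known from rod photoreceptors, was at 3.59 ± 0.309 and 10.2 ± 0.679 CPM (adjusted p = 4.42e-05). With age 1 was higher and 2 lower. Rapgef4, which encodes the related sensor Epac2, was 2.31-fold higher at 22 weeks, at 44.4 ± 4.53 CPM against 19.2 ± 3.29 CPM at 4 weeks (adjusted p = 4.43e-05), and Vasp, an actin regulator that protein kinases A and G phosphorylate, was at 184 ± 9.10 CPM against 294 ± 25.0 CPM (adjusted p = 0.000102). Prkar2b, a regulatory subunit of protein kinase A, was at 0.511-fold at 22 weeks (adjusted p = 0.00105). Against BPN/3J, 3 were higher and 6 lower in 4-week BPH/2J. Vasp was 1.84-fold and Prkaca 1.25-fold higher (adjusted p = 7.4e-06 and 0.00178), and Cngb1 was at 0.354-fold and Rapgef4 at 0.450-fold (adjusted p = 1.89e-05 and 2.14e-05).

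Kinase anchors, kinase inhibitors and calmodulins had 18 tested genes, of which 4 were higher and 4 lower in 22-week BPH/2J than in BPN/3J. Pkig, an inhibitor of protein kinase A, was 2.59-fold higher (adjusted p = 2.6e-05), and the anchor Akap5 2.48-fold higher (adjusted p = 0.000833). The anchor Akap12 had 423 ± 26.8 CPM in BPH/2J, against 655 ± 45.4 CPM in BPN/3J (adjusted p = 0.000581). Pde4dip, which encodes myomegalin, a protein that binds Pde4d, was lower together with Pde4d, at 67.7 ± 6.29 CPM and 90.4 ± 4.34 CPM (adjusted p = 0.00168). With age 7 were higher and 5 lower. The anchors Akap7 and Akap8 were 2.79-fold and 1.35-fold higher at 22 weeks (adjusted p = 1.93e-05 and 0.000157), and the calmodulin genes Calm3 and Calm2 were lower, at 0.747-fold and 0.759-fold (adjusted p = 0.000416 and 0.00136). In 4-week BPH/2J 5 were higher and 6 lower than in BPN/3J. Pkig was 3.73-fold and Calm3 by a log2 difference of 0.59 higher, and Akap7 was at 0.330-fold and Akap8 at 0.647-fold (adjusted p from 1.39e-06 to 2.14e-05).

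Of 7 genes of the CREB family, the transcription factors that protein kinase A activates, and their coactivators, 3 were lower in 22-week BPH/2J than in BPN/3J and 0 higher. Crebbp had 75.4 ± 5.38 CPM in BPH/2J, against 112 ± 16.8 CPM in BPN/3J (adjusted p = 0.00211), and Crem had 53.1 ± 3.58 and 69.2 ± 5.20 CPM (adjusted p = 0.00363). With age 1 was higher and 2 lower, with Crtc1 at 1.30-fold (adjusted p = 0.0284), Crem at 0.678-fold (adjusted p = 0.00034) and Crtc3 at 0.871-fold (adjusted p = 0.0458). Lower in 4-week BPH/2J than in BPN/3J were 3 genes, among them Crtc2 at 0.750-fold and Crebbp at 0.802-fold (adjusted p = 0.00158 and 0.0263), and 0 higher. Of the exporters of cyclic nucleotides, Abcc4 was 1.39-fold higher in 22-week BPH/2J than in BPN/3J (adjusted p = 0.00942) and 1.36-fold higher than at 4 weeks (adjusted p = 0.0113). Abcc5 was at 164 ± 4.59 CPM at 22 weeks and 209 ± 43.6 CPM at 4 weeks, with overlapping libraries (adjusted p = 0.0429), and was 1.25-fold higher in 4-week BPH/2J than in BPN/3J (adjusted p = 0.0473).

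Genes were ranked by Pearson's r of log2 CPM with a member, among 10652 genes averaging at least 5 CPM over the 9 libraries. Those most like Pde4d were Sik1 (0.990), Ifrd1 (0.989) and Mat2a (0.988). Sik1, a kinase gene, averaged 83.6 ± 11.3 CPM in 22-week BPH/2J, 95.8 ± 2.74 CPM in 4-week BPH/2J and 413 ± 59.1 CPM in BPN/3J. Among those most like Pde4b were Knstrn (0.995) and Marcksl1 (0.994), and Marcksl1 averaged 39.1 ± 5.62, 93.3 ± 14.9 and 38.5 ± 3.03 CPM in these groups. Knstrn averaged 3.66 ± 1.02, 19.8 ± 4.08 and 3.48 ± 0.501 CPM there. It thus reached the mean of 5 CPM only through 4-week BPH/2J, the group where Pde4b was high. The 9 libraries form 3 groups, so such r values mostly reflect 3 group means.

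Some reads could not be assigned with certainty. In the GENCODE M21 annotation, exons of Pde2a share 150 bases with exons of Arap1 on the same strand, and 3955 bases with another annotated Pde2a entry that has no row of its own in the table used here. Exons of Pde3a and Pde5a share 741 and 55 bases with the noncoding genes Gm28523 and 4930447N08Rik on the opposite strand. The sources used here do not give the strand setting of the counting, so reads of such overlaps cannot be told apart. Counts are per gene, so splice forms, of which Pde4 genes have many, were not resolved.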

How the data were processed

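The authors deposited raw counts and CPM for 9 polyA RNA libraries. CPM equals counts over column totals in the file. The deposited log2 fold changes, p-values and false discovery rates are the authors' own, per the file headers, and the sources used here do not state their model. TopHat2 2.0.13, featureCounts, edgeR and the mm9 build are listed in the submitters' processing notes. Counts were filtered with filterByExpr, which left 15277 of 18094 genes, scaled with TMM factors, and fitted by group over all 9 libraries in edgeR 4.0.16 (R 4.3.3). CPM printed for genes and marker sums carries the TMM scaling, and the limit for a count of 0 uses library totals alone. SE is the absolute log2 difference over the square root of F, and intervals are at 95%. The code was tested on simulated data. The members and lists were chosen with earlier results of these data known. Named were all members, other Pde genes of at least 1 CPM, up to 2 called genes per pathway list and direction by adjusted p, the most abundant marker of each list, and 3 genes most correlated with Pde4d and Pde4b, and some genes that these rules name are not reported here. Adipocyte markers were not analysed here. Alternatives were 3 other scalings, no filter, DESeq2 1.42.0, limma-voom (limma 3.58.1), only the compared groups, a replicate block, and each library left out. Promoter windows come from RefSeq on GRCm38.p6, a later build than mm9, and overlaps from GENCODE M21.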

Additional observations from a re-analysis of the deposited data

How the results depend on the processing

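Over 17 alternatives per comparison, Pde4d and Pde3b were called lower in 22-week BPH/2J than in BPN/3J in all, with log2 differences of -1.05 to -0.96 and -1.01 to -0.88, and Pde4b, Pde3b and Pde8a were called lower at 22 than at 4 weeks in all. Of 510 member results under an alternative, 477 kept their direction and side of the threshold. Those that turned in direction were small and not called. Between the lines Pde10a, at 0.0023 on the log2 scale, was at -0.0094 with median-of-ratios factors, -0.0095 in DESeq2, -0.0094 in limma-voom, -0.0094 with the replicate block and -0.0035 with only the 2 groups compared. It was at -0.14 without replicate 2 of 22-week BPH/2J and at -0.038 without replicate 1 of BPN/3J, and over all libraries left out it ran from -0.14 to 0.10. Pde1a, at -0.05, was at 0.0067 with library totals alone and 0.057 without replicate 2 of 22-week BPH/2J, and Pde4b, at -0.03, was at 0.027 with library totals alone. With age Pde4a, at -0.01, was at 0.0199 with upper-quartile scaling, 0.035 with library totals alone, 0.017 in limma-voom and 0.0074 with the replicate block. It was at 0.028 without replicate 2 of the 22-week group and at 0.098 and 0.083 without replicates 2 and 3 of the 4-week group, and ran from -0.187 to 0.098 over all libraries left out. The cause was not tested. The number of members called higher with age was 0 to 1 when a library was left out. For 4-week BPH/2J against BPN/3J it was 1 to 3, and the number called lower was 1 to 2. The members called lower with age numbered 3 to 4. Genes called between the lines numbered 5261 with the replicate block, against 5810 without it. Same-numbered libraries of different groups had residual correlations of -0.203 to 0.103, and other pairs between groups -0.168 to 0.175. No pairing by number was seen, but so few libraries per group cannot exclude it. The block changed no call of a member. At 28806840 counts or more per library, the lowest member, Pde1a, had 130 to 212 counts, and intervals such as 0.766-fold to 1.21-fold between the lines limit what could be seen for it.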
